A study of Mus musculus with 9 samples.

Results

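The ligand TNF, its close relatives, its receptors, the protease that sheds it and the first adaptors below the receptors were examined in RAW264.7 macrophages. The cells were wild-type, C/EBPδ knock-out, or carried C/EBPδ without its transactivation domain. The set holds 10 genes out of 55487 gene identifiers. With earlier results of these data known, the genes were listed by name and role and by no rule on their values. These are the ligands Tnf, Lta and Ltb, the receptors Tnfrsf1a and Tnfrsf1b, the shedding genes Adam17 and Rhbdf2, and the adaptors and kinase Traf2, Ripk1 and Tradd. All 10 passed the filter on low counts, as did 14312 genes in all. RAW264.7 is a mouse macrophage-like cell line, and C/EBPδ is a transcription factor of the CCAAT/enhancer-binding protein family encoded by Cebpd.

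RNA was taken from cells cultured without stimulation, so the values describe resting macrophages. Each of the 3 genotypes was sequenced in 3 libraries. Wild-type macrophages carried unedited Cebpd. Both edited genotypes came from the same CRISPR approach, with guides placed before and after the stretch that encodes the transactivation domain. CEBPD TAD macrophages (ΔTAD) kept C/EBPδ without this domain, and CEBPD KO macrophages (knock-out) served as cells without C/EBPδ. The study obtained edited cells as clones grown from single cells and used out-of-frame clones as knock-out. The sources used here leave unclear whether each library is a clone of its own, so a p-value here measures only the spread between these libraries, which may be that of few clones. A difference between genotypes and a difference between clones cannot be told apart where clones are few.

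The libraries held 16113306 to 20981829 counts on genes, and 3 counts corresponded to 0.143 to 0.186 CPM, the counts scaled to library size alone. The gene levels given below are CPM that also use TMM factors, a further scaling between libraries, so this range is only a rough floor for them. The editing removes only a part of the Cebpd transcript, and counts on it do not check the labels. Cebpd had 70 to 130 counts in a library, at means of 6.51 CPM in wild-type and 5.44 CPM in both edited genotypes, which were not called against wild-type (adjusted p = 0.085 and 0.0931, edgeR's quasi-likelihood test). ΔTAD replicate 1 stood apart from its fellow libraries through a few ribosomal and mitochondrial features, above all CT010467.1 at 110012 CPM against 11466 to 11642 CPM in the other ΔTAD libraries. Of 10 macrophage markers, 9 exceeded 3 counts in each genotype, and 1 was at 0 counts in the knock-out. The 10 summed to 3498 to 3686 CPM for wild-type, 4613 to 4995 CPM for knock-out and 7126 to 7304 CPM for ΔTAD libraries. The highest count of a single marker was 23747 for wild-type, 40237 for knock-out and 88391 for ΔTAD libraries. The sum can therefore follow 1 abundant marker, and it does not show that the markers rose as a set. Markers of T cells, B cells, NK cells, fibroblasts and epithelium had at most 7 counts in any library. In bulk RNA, fewer cells of a type and less RNA per cell cannot be told apart. The part of the rise in the summed macrophage markers in the results below was not tested.

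TNF is made as a membrane-bound protein that the metalloprotease ADAM17 cuts from the cell surface. The inactive rhomboid proteins iRhom1 and iRhom2, encoded by Rhbdf1 and Rhbdf2, carry ADAM17 to the surface, and iRhom2 does most of this work in macrophages. Soluble TNF binds TNFR1 (Tnfrsf1a) and TNFR2 (Tnfrsf1b). TNFR1 recruits TRADD, RIPK1 and TRAF2 and leads to NF-κB activation or, when that arm fails, to cell death, whereas TNFR2 binds TRAF2 without TRADD. Lymphotoxin α (Lta) also binds both receptors, and lymphotoxin β (Ltb) anchors it to the membrane for signalling through a receptor of its own. Tnf, Lta and Ltb lie side by side within the major histocompatibility complex.

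On chromosome 17 of GRCm38, Tnf (ENSMUSG00000024401) occupies 35199381 to 35202007 on the minus strand. Lta lies on the same strand from 35203165 to 35205351, with 1158 bases between it and Tnf. Ltb lies on the plus strand from 35194439 to 35196320, with 3061 bases between it and Tnf. Tnf and Ltb changed in opposite directions, and the sequences upstream of their start sites are therefore shown, taken from RefSeq for GRCm38.p6, with capitals for matches to the C/EBP-type motif TTNNGNAA on either strand and to the TATA motif TATAA.
Tnf, chr17:35202008-35202257, minus strand: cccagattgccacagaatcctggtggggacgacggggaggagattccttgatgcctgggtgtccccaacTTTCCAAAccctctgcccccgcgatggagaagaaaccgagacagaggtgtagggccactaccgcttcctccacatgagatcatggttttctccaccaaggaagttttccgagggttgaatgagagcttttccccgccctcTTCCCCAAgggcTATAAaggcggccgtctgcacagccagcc
Ltb, chr17:35194257-35194438, plus strand: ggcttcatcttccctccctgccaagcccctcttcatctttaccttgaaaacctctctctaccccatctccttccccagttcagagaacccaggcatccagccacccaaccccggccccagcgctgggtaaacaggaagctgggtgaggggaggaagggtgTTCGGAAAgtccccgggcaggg

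In these windows Tnf held TTNNGNAA on the opposite strand, beginning at −181 and −41 from its start, and TATAA at −29. Ltb held no TATAA and held TTNNGNAA on its own strand, at −90 from the RefSeq start, which lies downstream of the GENCODE start at which the printed stretch ends. Windows of the same kind were found for 8 of the 10 members, and CCAAT was present in none of them. Among 32851 promoter windows, all of 1 length, 40.7% held TTNNGNAA, 37.4% held CCAAT and 24.9% held TATAA on either strand, so that each of these matches is a common one. A match describes letters and is not evidence of binding.

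Tnf was the member with the highest level per length and was highest in knock-out macrophages. In wild-type libraries it had 187, 175 and 176 CPM, in ΔTAD libraries 232, 234 and 232 CPM, and in knock-out libraries 329, 325 and 330 CPM. The 3 genotypes did not overlap, and the order of the levels was wild-type, ΔTAD, knock-out. Means were 179 ± 6.65 CPM (SD, n = 3) in wild-type, 233 ± 1.05 CPM in ΔTAD and 328 ± 2.70 CPM in knock-out macrophages. Tnf rose 1.83-fold in knock-out macrophages, with a log2 fold change of 0.87 ± 0.0359 (SE; adjusted p = 3.2e-16, quasi-likelihood test of edgeR, adjusted by Benjamini-Hochberg over all genes tested). The rise in ΔTAD macrophages was 1.30-fold, with a log2 fold change of 0.38 ± 0.0359 (adjusted p = 2.25e-09, same test), but it turned to −0.13 when libraries were scaled within chromosome 17, as described further on. Knock-out exceeded ΔTAD macrophages by 0.49 ± 0.0355 on the log2 scale (adjusted p = 5.62e-11, same test), so each neighbour in the order differed from the next beyond the spread between libraries.

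**Figure D1:**
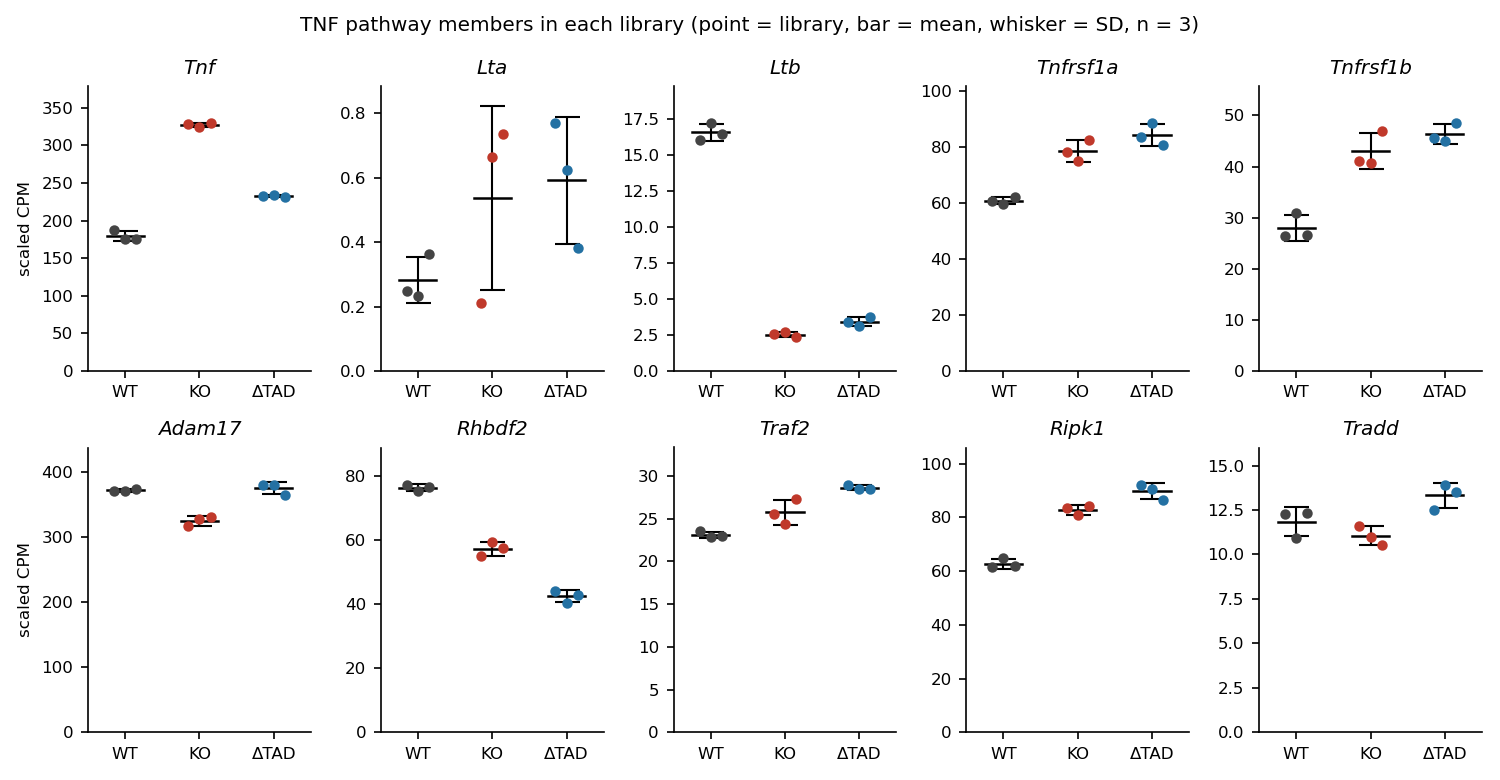
Scaled CPM of the 10 members (vertical axes, from 0) in wild-type (WT), knock-out (KO) and ΔTAD macrophages, where each point is 1 library, horizontal bars are means and whiskers are SD (n = 3). Tnf lies at 175 to 187 CPM in wild-type libraries and at 325 to 330 CPM in knock-out libraries, while Ltb, at a mean of 16.6 CPM in wild-type, lies at 3.71 CPM or less in the edited libraries.

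Ltb moved the other way and by more than any other member that was called. It had 321, 297 and 272 counts in wild-type libraries, 48, 45 and 41 in knock-out libraries, and 49, 65 and 78 in ΔTAD libraries. Every edited library lay far below every wild-type library. Ltb fell 6.55-fold in knock-out macrophages, from 16.6 ± 0.597 to 2.52 ± 0.198 CPM (SD, n = 3; log2 fold change −2.71 ± 0.113 SE, adjusted p = 4.09e-16, edgeR's quasi-likelihood test). In ΔTAD macrophages, at 3.42 ± 0.296 CPM, it fell 4.83-fold (log2 fold change −2.27 ± 0.105, adjusted p = 2.4e-15, same test). The difference between knock-out and ΔTAD macrophages was not called (log2 difference −0.44, adjusted p = 0.0222, same test), although their libraries did not overlap. In size, the fall of Ltb exceeded the change of 98.1% of all genes tested in knock-out and of 97.6% in ΔTAD macrophages.

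Within each library, the ratio of Tnf to Ltb counts set the neighbouring genes against each other without any scaling between libraries. The ratio was 11.7, 10.2 and 10.7 in wild-type libraries, 67.8, 74.9 and 62.4 in ΔTAD libraries, and 130, 119 and 142 in knock-out libraries. It thus rose from a mean of 10.8 ± 0.759 in wild-type to 68.4 ± 6.26 in ΔTAD and 130.4 ± 11.3 in knock-out macrophages (SD, n = 3), with no overlap between genotypes.

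Lta was near the limit of detection. It had 5, 4 and 6 counts in wild-type libraries, 4, 11 and 13 in knock-out libraries, and 11, 13 and 8 in ΔTAD libraries. Knock-out and wild-type libraries overlapped, and no change was detectable at this depth (log2 fold change 0.90 ± 0.495, adjusted p = 0.129). The ΔTAD libraries lay above the wild-type libraries, but the difference was not called either (log2 fold change 1.02 ± 0.482, adjusted p = 0.0721, edgeR's quasi-likelihood test).

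Both TNF receptors rose in both edited genotypes. Tnfrsf1a, on chromosome 6, had 60.7, 59.7 and 62.0 CPM in wild-type, 78.2, 74.8 and 82.6 CPM in knock-out, and 83.4, 88.5 and 80.7 CPM in ΔTAD libraries. It rose 1.29-fold in knock-out (log2 fold change 0.37 ± 0.0421, adjusted p = 5e-08) and 1.39-fold in ΔTAD macrophages (0.47 ± 0.0415, adjusted p = 5.16e-10, edgeR's quasi-likelihood test for both). All edited libraries exceeded all wild-type libraries, and the 2 edited genotypes overlapped.

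Tnfrsf1b, on chromosome 4, encodes the receptor found mainly on immune and endothelial cells. Its level was 26.5, 30.9 and 26.5 CPM in wild-type, 41.1, 40.8 and 47.0 CPM in knock-out, and 45.7, 44.9 and 48.5 CPM in ΔTAD libraries. It rose 1.54-fold in knock-out (log2 fold change 0.62 ± 0.0666, adjusted p = 1.82e-08) and 1.66-fold in ΔTAD macrophages (0.73 ± 0.0656, adjusted p = 6.68e-10, same test). For neither receptor was knock-out called against ΔTAD, with log2 differences of −0.10 for Tnfrsf1a (95% interval −0.18 to −0.02, adjusted p = 0.0448) and −0.11 for Tnfrsf1b (−0.23 to 0.01, adjusted p = 0.146, same test). The ratio of Tnfrsf1a to Tnfrsf1b counts was 2.19 ± 0.223 for wild-type, 1.83 ± 0.0742 for knock-out and 1.82 ± 0.152 for ΔTAD libraries (SD, n = 3).

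Rhbdf2 fell in both edited genotypes, and Adam17 depended on the scaling. Rhbdf2, on chromosome 11, had 77.2, 75.2 and 76.4 CPM in wild-type, 55.0, 59.4 and 57.3 CPM in knock-out, and 44.1, 40.5 and 42.8 CPM in ΔTAD libraries. The genotypes did not overlap, and their order was wild-type, knock-out, ΔTAD. Rhbdf2 fell 1.33-fold in knock-out (log2 fold change −0.42 ± 0.0406, adjusted p = 3.64e-09) and 1.80-fold in ΔTAD macrophages (−0.85 ± 0.0421, adjusted p = 9.3e-15, edgeR's quasi-likelihood test for both). Knock-out exceeded ΔTAD macrophages by 0.43 ± 0.0438 on the log2 scale (adjusted p = 2.26e-08, same test), the same order of these genotypes as for Tnf.

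Adam17, the sheddase itself, had 371, 371 and 374 CPM in wild-type, 317, 328 and 331 CPM in knock-out, and 381, 380 and 365 CPM in ΔTAD libraries. Knock-out libraries lay below all others, whereas wild-type and ΔTAD libraries overlapped. It fell 1.14-fold in knock-out macrophages (log2 fold change −0.19 ± 0.0344, adjusted p = 3.63e-05) and was not called in ΔTAD macrophages (0.01, 95% interval −0.06 to 0.08, adjusted p = 0.782, edgeR's quasi-likelihood test), and the fall turned to a rise when libraries were scaled within chromosome 12. Knock-out lay below ΔTAD macrophages by −0.21 (adjusted p = 3.51e-05, same test), a call that was lost with library size alone as the scaling (−0.13, adjusted p = 0.124). The ratio of Adam17 to Rhbdf2 counts in a library was 4.88 ± 0.0661 for wild-type, 5.69 ± 0.140 for knock-out and 8.85 ± 0.472 for ΔTAD macrophages (SD, n = 3). Exons of Adam17 overlap those of Iah1 on the other strand over 311 bases, and the strand setting of the counting was not stated.

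Among the adaptors and the kinase, Ripk1 changed most. Ripk1, a kinase that stands between survival and death signals, had 61.5, 64.8 and 61.8 CPM in wild-type, 83.4, 80.8 and 84.3 CPM in knock-out, and 92.2, 90.5 and 86.5 CPM in ΔTAD libraries. No genotypes overlapped. It rose 1.32-fold in knock-out (log2 fold change 0.40 ± 0.0370, adjusted p = 1.18e-09) and 1.43-fold in ΔTAD macrophages (0.52 ± 0.0364, adjusted p = 8.52e-12, edgeR's quasi-likelihood test for both). Its exons overlap the pseudogene Gm17084 on the same strand over 511 bases, 6.12% of their length, and Serpinb6a on the other strand over 241 bases.

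Traf2, a ubiquitin ligase of the receptor complex, had 23.5, 22.9 and 23.0 CPM in wild-type, 25.5, 24.4 and 27.3 CPM in knock-out, and 29.0, 28.4 and 28.4 CPM in ΔTAD libraries. It rose 1.24-fold in ΔTAD macrophages (log2 fold change 0.30 ± 0.0616, adjusted p = 0.000151) and was not called in knock-out macrophages (0.16 ± 0.0630, adjusted p = 0.0397, edgeR's quasi-likelihood test). With library size alone as the scaling, the call in ΔTAD macrophages was lost (0.22, adjusted p = 0.0206). Tradd, the adaptor that links TNFR1 to RIPK1 and TRAF2, had 12.3, 10.9 and 12.4 CPM in wild-type, 11.6, 11.0 and 10.5 CPM in knock-out, and 12.5, 13.9 and 13.5 CPM in ΔTAD libraries. Neither edited genotype was called against wild-type for Tradd (log2 fold change −0.10 and 0.17, adjusted p = 0.35 and 0.0788, same test). Knock-out was not called against ΔTAD macrophages for Ripk1 (−0.11, adjusted p = 0.0115), Traf2 (−0.15, adjusted p = 0.0483) or Tradd (−0.28, adjusted p = 0.0111, same test), although knock-out libraries lay below all ΔTAD libraries for each. For Ripk1 the difference was called when libraries were scaled within the chromosome (−0.14, adjusted p = 0.0024).

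In number, 7 of the 10 members were called in knock-out against wild-type macrophages, 4 higher and 3 lower, while 45.2% of all genes tested were called (22.8% higher, 22.4% lower). In ΔTAD against wild-type macrophages 7 members were called, 5 higher and 2 lower, beside 49.7% of all genes (26.3% higher, 23.4% lower). Between knock-out and ΔTAD macrophages 3 members were called, Tnf and Rhbdf2 higher and Adam17 lower in knock-out, beside 33% of all genes (13.9% higher, 19.1% lower). Libraries did not overlap for 8, 9 and 7 members in these comparisons, beside 59.7%, 63.1% and 52.8% of all genes. The median size of the members' log2 fold changes was 0.41, 0.49 and 0.18, and that of all genes was 0.24, 0.27 and 0.18. These counts rest on wild-type libraries that both edited genotypes share. They were the same without ΔTAD replicate 1, with log2 fold changes of 0.35 for Tnf, −2.30 for Ltb and −0.90 for Rhbdf2 in ΔTAD macrophages.

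Per kilobase of annotated exon, Tnf led the members in every genotype, with a mean of 109 CPM per kb in wild-type, 142 in ΔTAD and 199.9 in knock-out macrophages. In wild-type macrophages the order continued with Adam17 at 52.0, Tnfrsf1a at 23.5, Rhbdf2 at 14.4 and Ltb at 10.9 CPM per kb. Ripk1 at 7.51 and Tnfrsf1b at 7.32 CPM per kb differed by less than the spread of Tnfrsf1b. Below them came Tradd at 6.35, Traf2 at 4.53 and Lta at 0.203 CPM per kb. In knock-out and ΔTAD macrophages Ltb, at 1.67 and 2.26 CPM per kb, stood below all members but Lta.

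Genes of chromosomes 12 and 17 were shifted as a whole between the genotypes, which bears on 4 members. The median log2 fold change of the 745 other genes tested on chromosome 17, where Tnf, Lta and Ltb lie, was 0.48 (knock-out) and 0.50 (ΔTAD macrophages). That of the 540 other genes on chromosome 12, where Adam17 lies, was −0.52 and −0.54. Medians of the other 18 chromosomes lay between −0.06 and 0.03 in both edited genotypes. The source of the shift was not tested.

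**Figure D2:**
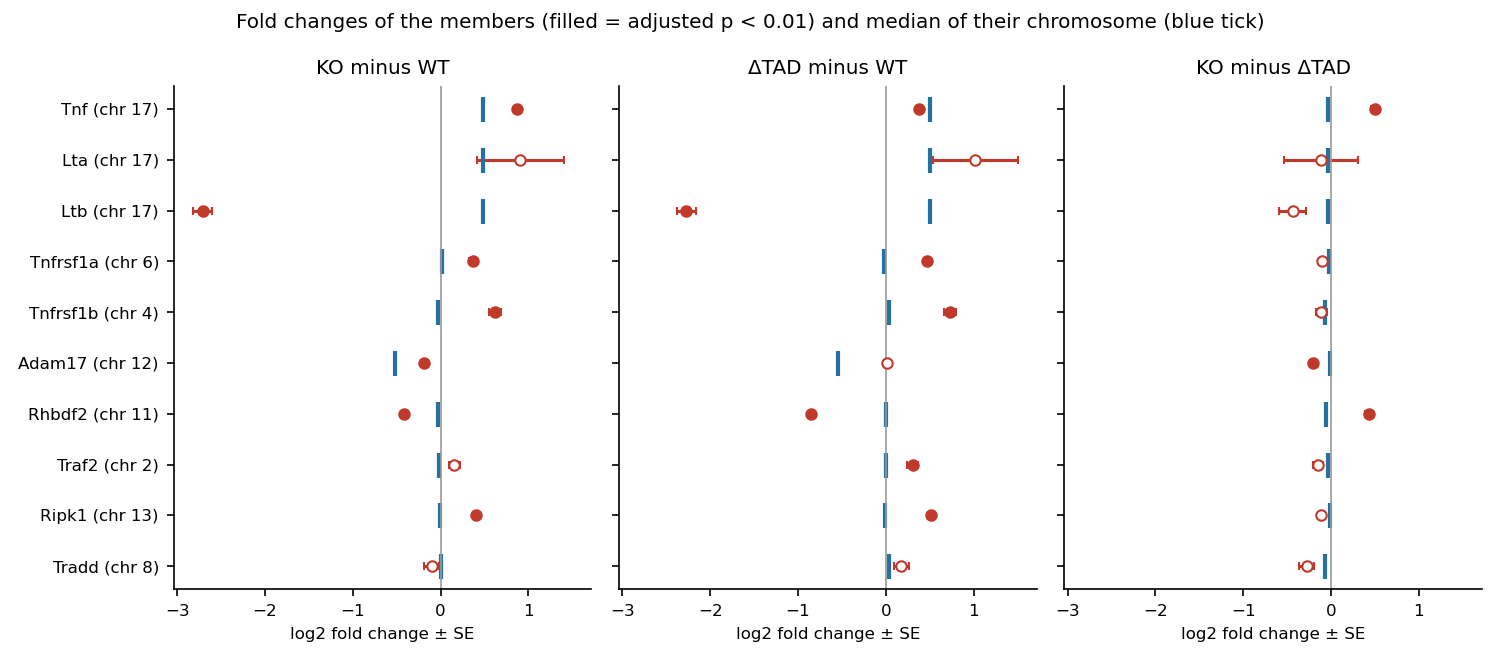
Log2 fold change ± SE (horizontal axes) of the 10 members in 3 comparisons, filled where the adjusted p is under 0.01, with the median of each member's chromosome as a blue tick. In the comparisons with wild-type, Tnf lies above the median of chromosome 17 in knock-out (0.87 against 0.48) and below it in ΔTAD macrophages (0.38 against 0.50). There Ltb lies far below that median in both, and Adam17 lies above the median of chromosome 12 in both. Between knock-out and ΔTAD macrophages, Adam17 lies below the median of chromosome 12 (−0.21 against −0.01).

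Against their own chromosome, Tnf, Ltb and Adam17 read differently in part. When libraries were scaled within each chromosome, Tnf was higher in knock-out macrophages by 0.39 (adjusted p = 1.12e-09), but in ΔTAD macrophages its direction turned to −0.13 (adjusted p = 0.00423, edgeR's quasi-likelihood test). The fall of Ltb became −3.19 in knock-out and −2.77 in ΔTAD macrophages. Adam17 turned to 0.35 in knock-out macrophages (adjusted p = 4.23e-09) and was called higher at 0.54 in ΔTAD macrophages (adjusted p = 1.38e-12, same test). The difference of Tnf between knock-out and ΔTAD macrophages, where chromosome 17 was not shifted, was 0.52 on this scale.

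The genes next to Tnf gave the same picture at close range. Of the 17 other tested genes within 100 kb of Tnf, Lta and Ltb left out, 10 were higher and 0 lower in knock-out macrophages (median log2 fold change 0.47), and 11 were higher and 0 lower in ΔTAD macrophages (median 0.59). Among all genes tested, 22.8% and 26.3% were called higher, and the medians of chromosome 17 as a whole were 0.48 and 0.50. Aif1, a macrophage activation marker, rose by 1.62 and 1.77 and the class I histocompatibility gene H2-D1 by 0.91 and 1.33, in knock-out and ΔTAD macrophages. The leukocyte gene Lst1, between Ltb and Aif1, was not called (−0.13 and −0.02), nor was the RNA helicase gene Ddx39b (−0.05 and 0.00). Ltb was lower than all 40 nearest tested genes, 20 on each side, in both edited genotypes. H2-D1 belongs to a family of near-identical genes, and its counts are uncertain.

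**Figure D3:**
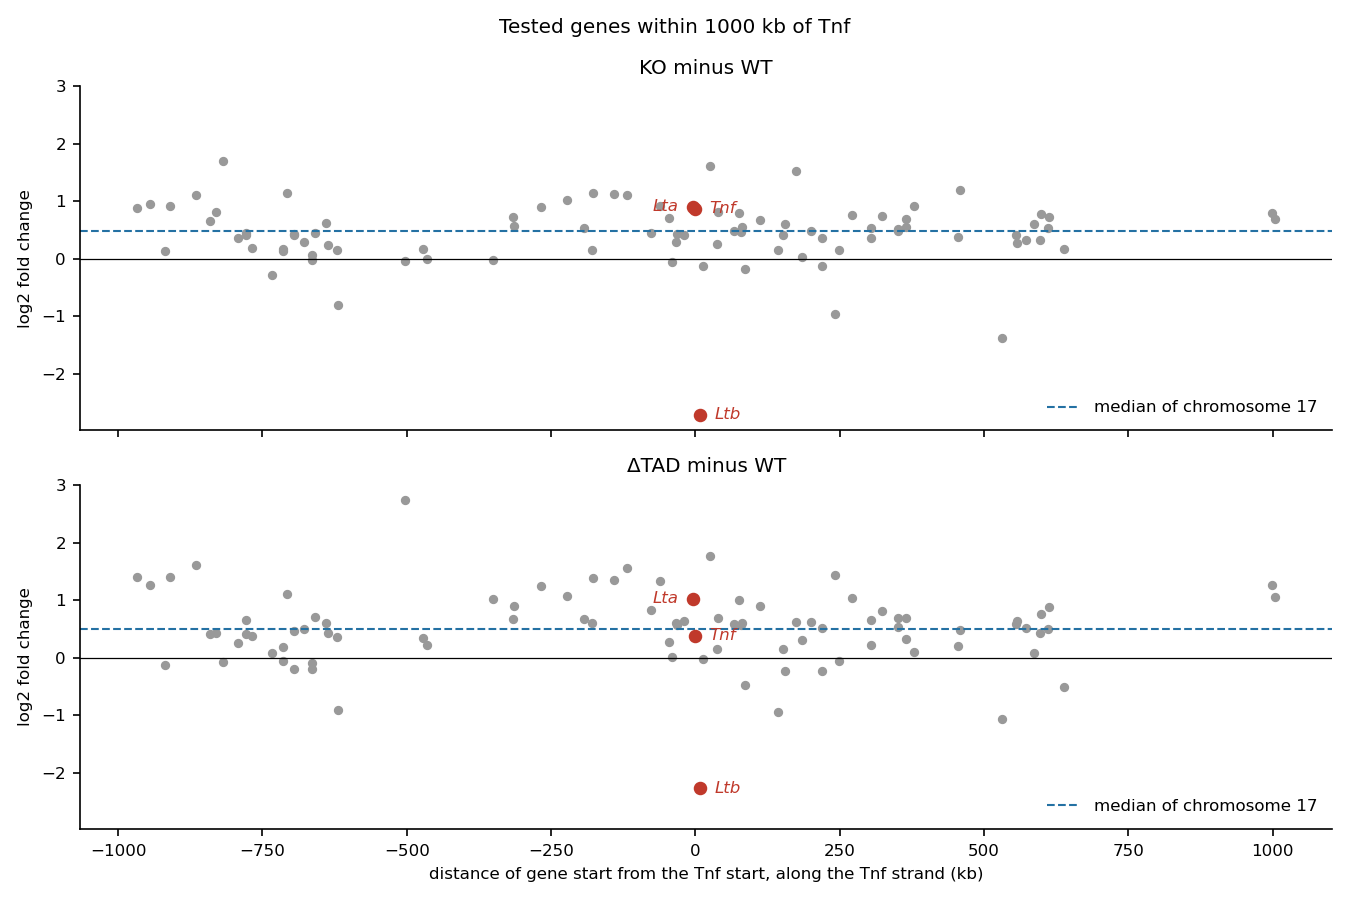
Log2 fold change (vertical axes) of each tested gene around the Tnf start by the distance of its own start (horizontal axis, kb along the Tnf strand) in knock-out (above) and ΔTAD macrophages (below), with Tnf, Lta and Ltb in red and the median of chromosome 17 dashed. Most points lie above 0, and Ltb, at −2.71 and −2.27, lies below every other gene shown.

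Among the other ligands of the TNF superfamily, 4 of 15 passed the filter, and 3 of these rose in each edited genotype while none fell, beside 22.8% and 26.3% of all genes called higher in knock-out and ΔTAD macrophages. Scaled within the chromosome, 3 rose and 1 fell in knock-out and 2 rose in ΔTAD macrophages. Tnfsf13b (BAFF), a B-cell survival factor, rose by 1.83 ± 0.193 in knock-out and 1.57 ± 0.198 in ΔTAD macrophages on the log2 scale, from 28, 23 and 19 counts in wild-type to 69 to 92 in knock-out and 43 to 91 in ΔTAD libraries. Tnfsf12 (TWEAK) rose by 1.46 and 1.41. Tnfsf13 (APRIL) rose by 2.26 in knock-out macrophages, was not called in ΔTAD macrophages (0.79, adjusted p = 0.0266, edgeR's quasi-likelihood test) and differed between them by 1.47 (adjusted p = 7.08e-06, same test). Tnfsf12 and Tnfsf13 share 48.3% and 60.0% of their exon length with the joined gene Tnfsfm13, so their counts are uncertain. The other 11 ligands, among them Fasl and Tnfsf10 (TRAIL), had at most 4 counts in any library.

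Of 26 other receptors of the superfamily, 15 were tested, of which 3 rose and 4 fell in knock-out and 5 rose and 3 fell in ΔTAD macrophages. In all, 45.2% and 49.7% of genes were called in these comparisons, so the number of receptors called was near that of genes at large. Fas, a death receptor, had 5, 4 and 5 counts in wild-type, 45, 50 and 40 in knock-out, and 20, 23 and 25 in ΔTAD libraries. Its log2 fold change was 3.26 ± 0.307 in knock-out (adjusted p = 1.89e-09) and 2.19 ± 0.354 in ΔTAD macrophages (adjusted p = 9.04e-06), and knock-out exceeded ΔTAD by 1.06 (adjusted p = 0.000378, edgeR's quasi-likelihood test). All edited libraries were above all wild-type libraries. Cd40, a costimulatory receptor, rose by 1.52 in both edited genotypes. Tnfrsf12a, the TWEAK receptor, on chromosome 17, rose by 1.07 and 0.65, and the second of these calls was lost when libraries were scaled within the chromosome (0.15). Eda2r had 0 counts in all knock-out libraries and was at least 5.12-fold lower than in wild-type macrophages, computed against a floor of 3 counts per library.

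Of 7 further shedding and processing genes, 6 were tested, of which 3 rose and 1 fell in each edited genotype, beside 45.2% and 49.7% of all genes called. Rhbdf1, which encodes iRhom1, had 99, 78 and 62 counts in wild-type, 219, 244 and 254 in knock-out, and 201, 246 and 201 in ΔTAD libraries. It rose by 1.61 ± 0.141 and 1.39 ± 0.144 (adjusted p = 5.54e-10 and 9.23e-09, edgeR's quasi-likelihood test), against the direction of Rhbdf2. The ratio of Rhbdf2 to Rhbdf1 counts was therefore 17.5 ± 2.47 for wild-type, 4.26 ± 0.440 for knock-out and 3.68 ± 0.704 for ΔTAD libraries (SD, n = 3). Furin, a protease that activates ADAM17, fell by 0.30 and by 0.28 on the log2 scale. Frmd8, which stabilises the iRhom proteins, was not called in knock-out (0.12) and rose by 0.31 in ΔTAD macrophages. Timp3, the natural inhibitor of ADAM17, had 0 counts in all libraries, which allows up to 3 counts in each.

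**Figure D4:**
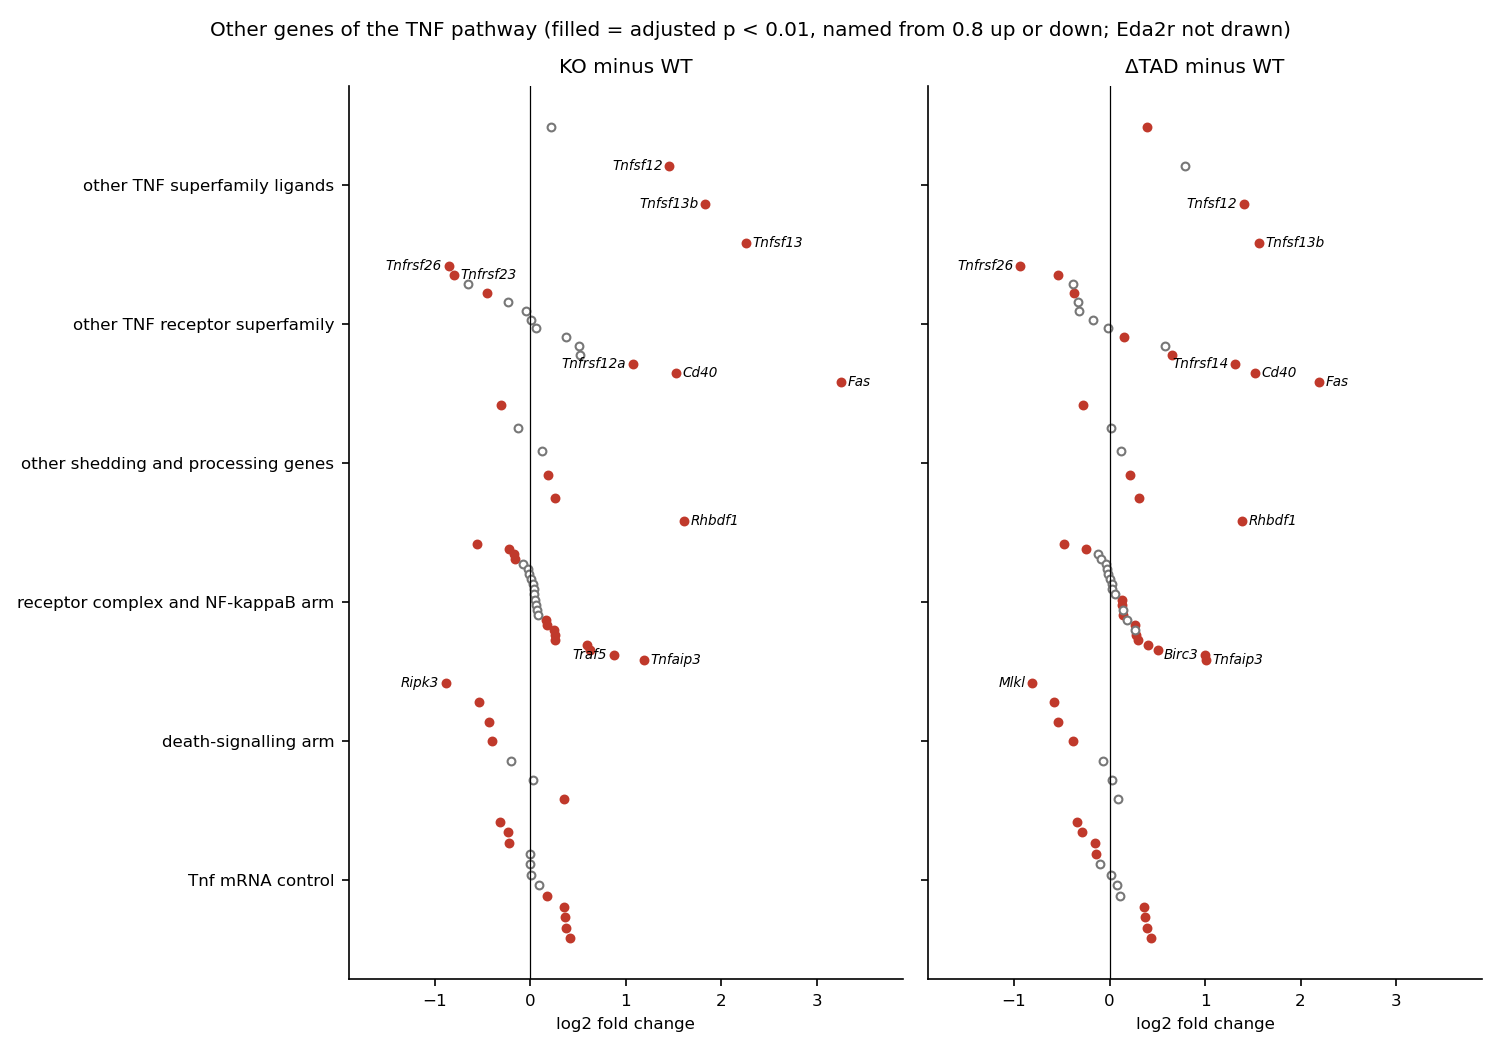
Log2 fold change (horizontal axes) of the other tested genes of the TNF pathway in knock-out (left) and ΔTAD macrophages (right), by list, where each point is 1 gene and filled points have an adjusted p under 0.01. Rhbdf1 lies at 1.61 and 1.39 and Fas at 3.26 and 2.19, whereas 4 of the 7 genes of the death-signalling list lie below 0 and filled in each panel.

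In the receptor complex and NF-κB arm, all 24 genes were tested. Of these, 9 rose and 4 fell in knock-out and 10 rose and 2 fell in ΔTAD macrophages, with medians of 0.05 and 0.13. These counts, too, were near the 45.2% and 49.7% of all genes called. In ΔTAD macrophages 7 rose and 1 fell when libraries were scaled within the chromosome, and 8 rose and 2 fell without ΔTAD replicate 1. Tnfaip3 (A20), an NF-κB target that restrains TNF receptor signalling, rose by 1.19 ± 0.078 and 1.01 ± 0.079 (adjusted p = 2.58e-12 and 5.69e-11, edgeR's quasi-likelihood test). Birc3, a ubiquitin ligase bound to TRAF2, rose from 15.7 to 23.6 and 31.3 CPM and was lower in knock-out than in ΔTAD macrophages (−0.41, adjusted p = 3.46e-05, same test). Traf5 and Traf1 rose in knock-out macrophages, by 0.87 and 0.63, and were not called in ΔTAD macrophages (0.26 and 0.14). For both, knock-out exceeded ΔTAD macrophages, by 0.61 and 0.49 (adjusted p = 6.19e-05 and 0.0015, same test).

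The death-signalling arm held 7 genes, of which 1 rose and 4 fell in knock-out and 0 rose and 4 fell in ΔTAD macrophages, with median log2 fold changes of −0.40 and −0.38 against 0.00 for all genes. Of all genes, 22.4% and 23.4% were called lower. Ripk3, the kinase that RIPK1 activates in necroptosis, was lower by −0.89 ± 0.067 and −0.59 ± 0.065 (adjusted p = 3.85e-11 and 2.64e-08, edgeR's quasi-likelihood test). Mlkl, which RIPK3 phosphorylates to open the membrane, was lower by −0.54 and −0.81. Cflar, an inhibitor of caspase-8, rose by 0.35 in knock-out macrophages and was not called in ΔTAD macrophages (0.02). Ripk3 and Mlkl thus fell in the genotypes in which Ripk1 rose.

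Genes that control Tnf mRNA, through its decay or translation, numbered 12. Of these, 5 rose and 3 fell in knock-out and 4 rose and 4 fell in ΔTAD macrophages, with medians of 0.05 in both, beside 45.2% and 49.7% of all genes called. Scaled within the chromosome, 3 rose and 3 fell in knock-out and 2 rose and 5 fell in ΔTAD macrophages. Mapkapk2, a kinase that stabilises Tnf mRNA, was lower in knock-out (−0.23) and higher in ΔTAD macrophages (0.38), and knock-out lay below ΔTAD macrophages by −0.60 (adjusted p = 6.68e-13, edgeR's quasi-likelihood test). Between knock-out and ΔTAD macrophages, this order is the opposite of that of Tnf. Zc3h12a (Regnase-1), which degrades inflammatory transcripts, rose by 0.36 and 0.39, and Tia1, a translational repressor of Tnf, rose by 0.35 in knock-out macrophages. With library size alone as the scaling, the call of Zc3h12a in ΔTAD macrophages was lost (0.30, adjusted p = 0.0134, edgeR's quasi-likelihood test). Zfp36l2 (0.42 and 0.36) and Khsrp (0.37 and 0.43), both on chromosome 17, turned in direction when libraries were scaled within the chromosome, to −0.06 and −0.14 for Zfp36l2 and to −0.11 and −0.07 for Khsrp.

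The genes whose log2 CPM was most like that of Tnf over the 9 libraries were Bcar3 (Pearson's r = 0.999), Plk2, Myo10, Src and Zfand2a (r = 0.995). None of them lies on chromosome 17, and their log2 fold changes were 0.78 to 1.99 in knock-out and 0.34 to 0.93 in ΔTAD macrophages. Among those most like Tnfrsf1b were Tom1 (r = 0.990), Tdrd7, Ttpal and Fgf13 (r = 0.988). The 9 points are 3 genotypes of 3 libraries, so these values mainly describe the order and spacing of 3 group means.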

How the data were processed

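RNA from unstimulated RAW264.7 macrophages was depleted of ribosomal RNA and sequenced as single reads. After quality control (FastQC) and trimming (Trimmomatic), the authors aligned reads with Hisat2 to GRCm38 and deposited HTSeq counts per Ensembl gene, whole numbers without normalization. The strand setting and counting mode are not given in the sources used here, so values of overlapping genes and paralogs are uncertain. Of the records, 46.7% to 53.2% were counted on genes, and tally lines that name no gene were left out.

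Groups and replicate numbers came from the genotype and donor labels. The tests used edgeR 4.0.16 under R 4.3.3 (filterByExpr with minimum count 10 and minimum total 15, TMM scaling, 1 quasi-likelihood model of the 3 genotypes on all 9 libraries). Genes with a Benjamini-Hochberg adjusted p under 0.01, the threshold of the study, were called. The SE of a log2 fold change was derived from its F statistic. CPM use TMM-scaled library sizes, and lengths and positions come from GENCODE M21. Members, lists and tests were chosen with earlier results of these data known. Outside the members, the text names for each list and comparison the 2 largest changes among called genes with at least 1 CPM in the higher genotype, genes near Tnf, and the 5 genes most like Tnf and Tnfrsf1b, of which 1 is not reported here. Eda2r and Timp3 were named after their values were seen.

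Tried as alternatives were limma-voom (limma 3.58.1), DESeq2 1.42.0, other scalings, filters and thresholds, a GC content and length offset, models of only 2 genotypes, a replicate block and leaving out each library. Counts were simulated with 200 genes changed by at least 1 on the log2 scale and the same spread setting for all genes. The steps recovered 98% of these changes in knock-out and 100% in ΔTAD against wild-type. All called members but Ltb changed by less than 1, so this recovery does not describe changes of their size.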

Additional observations from a re-analysis of the deposited data

How the results depend on the processing

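Of 655 alternative values for the members, 620 kept their direction and their side of the threshold, 17 lost a call, 11 gained one and 7 changed sign. The count of members called stayed at 7, 7 and 3 with the replicate block, and leaving out 1 library in turn gave 7 to 7, 7 to 7 and 3 to 4. The block was not used otherwise because same-numbered libraries did not deviate together (correlations −0.07 to 0.02, 1 of 9 libraries best with its own number). A minimum log2 fold change of 1 left 1, 1 and 0 members, and an adjusted p under 0.05 gave 8 in knock-out against ΔTAD. Library size alone gave 2 members in knock-out against ΔTAD and 6 in ΔTAD against wild-type, and moved the share of higher calls from 52.9% to 39.6% in ΔTAD against wild-type and from 42.1% to 69.0% in knock-out against ΔTAD. Scaling within the chromosome gave 5 members higher and 2 lower in knock-out and 5 higher and 3 lower in ΔTAD against wild-type. In knock-out against ΔTAD it gave 2 higher and 2 lower. This scaling turned Tnf in ΔTAD (−0.13) and Adam17 in knock-out macrophages (0.35). Adam17 in ΔTAD macrophages, not called, turned under library size alone (−0.078), with at least 10 counts in every library (−0.0062) and without ΔTAD replicate 1 (range over libraries left out −0.026 to 0.031). Lta, whose low counts limit it, turned in knock-out against ΔTAD without knock-out replicate 1 (0.29) and without ΔTAD replicate 1 (0.10; range −0.43 to 0.29), and gave no value with at least 10 counts in every library. The causes of these changes were not tested.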
